A study of Mus musculus with 8 samples.

Results

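The cells described here were the GFP- cells of the mouse cochlea, compared between postnatal day 6 (P6) and postnatal day 1 (P1). They make 4 of the 8 libraries of the series, P1 GFP- 1 and 2 and P6 GFP- 1 and 2, and were taken by age and fraction from the sample labels, with no expression value used. All mice carried LFng-GFP, a BAC transgene of the strain B6;FVB-Tg(Lfng-EGFP)HM340Gsat/Mmucd in which regulatory DNA of *Lfng* drives GFP in most supporting cell types of the organ of Corti. The GFP- cells were therefore what remained once the brightest supporting cells had been sorted away, and cells of intermediate brightness were in neither fraction. The cochleas were dissected, treated with papain, dissociated and sorted without culture, and RNA of sorted cells was sequenced as paired ends.

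The dissection was not the same at both ages. At P1 the duct was peeled off the modiolus, the bony core that holds the spiral ganglion, and the structures beside it (stria vascularis, lateral wall, Reissner's membrane) were taken off. At P6 the duct was cut from the modiolus, and the lateral wall, stria and Reissner's membrane were removed only in part. The bony otic capsule was removed at both ages. Age and dissection cannot be told apart in these libraries, and in bulk RNA fewer cells of a type cannot be told from less RNA per cell. The methods speak of duplicate samples and do not say whether the duplicates came from separate animals or litters, so the p-values measure only the spread between these samples.

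As background, the cochlear duct in the first postnatal week is surrounded by mesenchyme that forms the fibrocytes of the lateral wall and spiral limbus, by cartilage that is being replaced with the bone of the otic capsule and modiolus, and by vessels and resident macrophages. Schwann cells wrap the fibres of the spiral ganglion neurons in myelin during these days, before hearing begins. Intermediate cells of the stria vascularis are melanocytes, and marginal cells of the stria secrete the potassium-rich endolymph.

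The 4 libraries held 37892339 to 67695039 counts on genes, which were 65.1% to 76.2% of the reads listed, and 23349 to 24199 genes had at least 1 count. The label of the fraction was checked on *Lfng*, which in normalized counts over all 8 libraries lay between 689 and 2190 in the GFP- libraries and between 105462 and 174989 in the GFP+ libraries. Over genes, the chi-square divided by its degrees of freedom was 41.1 between the P1 replicates and 37.9 between the P6 replicates, so neither pair matched within counting error. Most gene values below are normalized counts, which are counts divided by the TMM-adjusted library size and scaled to the mean of the 4 libraries, given in the order of replicates 1 and 2. A gene is said to have risen or fallen where edgeR's quasi-likelihood test gave a Benjamini-Hochberg adjusted p-value below 0.01 over all 18920 genes tested. Fold changes are P6 over P1 on the log2 scale, with the standard error of the fit (n = 2 libraries at each age).

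Of the 18920 genes, 954 rose (5.04%) and 443 fell (2.34%). Among them 271 rose by more than 4-fold (1.43%) and 79 fell by more than 4-fold (0.418%). The log2 fold changes of all genes had a median of -0.02. Both P6 values lay above both P1 values in 32.6% of all genes and below both in 31.8%. Scaled by library totals alone, the median shifted by -0.19, and the split of genes higher and lower at P6 went from 954 and 443 to 564 and 575. All changes below are relative to the TMM scale. The counts depended strongly on single libraries. Without P6 GFP- 1 there were 218 genes higher and 31 lower, and without P6 GFP- 2 there were 334 and 34. Without P1 GFP- 1 there were 1505 and 1426, and without P1 GFP- 2 there were 1826 and 1203. The counts past 4-fold were 123 and 8 without P6 GFP- 1, 162 and 10 without P6 GFP- 2, 317 and 357 without P1 GFP- 1, and 366 and 147 without P1 GFP- 2. Among 179 called genes of the lists, families and rankings described here, no direction turned in any of 12 other fits, and 44 kept their call in all of them.

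The called genes followed through other fits were picked from these same libraries, so a direction that held is weak support. The gene lists below hold 422 genes in 27 lists of cell types and processes, of which 417 matched a gene in the files. Lists and members were chosen with earlier results of these data known. Their counts of called genes are therefore a description, to be read beside the 5.04% of all genes that rose and the 2.34% that fell. The plot of list members shows all of them at once. By list median, bone genes lay farthest above 0 (3.56). Genes of dividing cells lay farthest below (-1.44), next to the neutrophil and mast cell list (-1.43, 6 genes tested). Single members of other lists lay lower, down to -5.06 among hair cell genes.

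**Figure D1:**
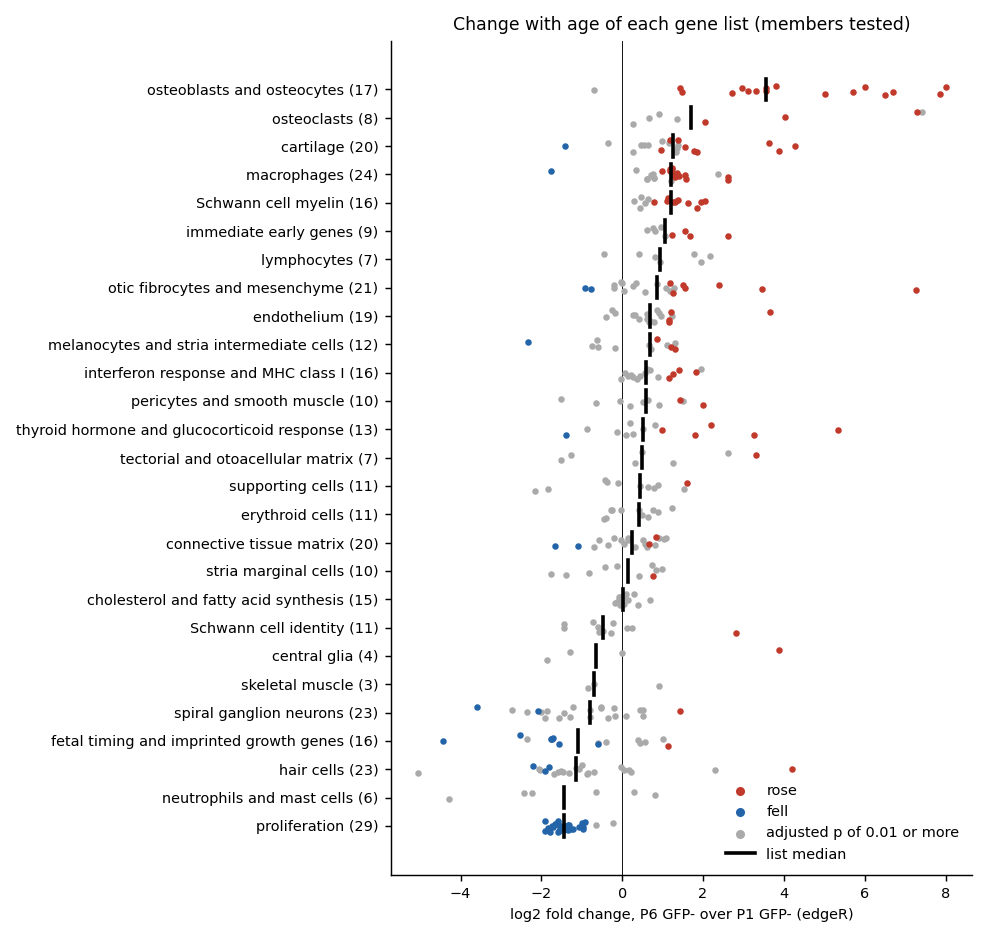
Log2 fold change, P6 over P1 in GFP- cells, of each tested list member (points; the number tested is in brackets), with rose in red, fell in blue and the rest grey, and the list median as a black bar. The osteoblast list has the highest median (3.56) and the proliferation list the lowest (-1.44), while the median of all genes is -0.02.

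Genes of bone-forming cells changed most among the lists. Of the 17 tested genes of osteoblasts and osteocytes 16 rose, against 5.04% of all genes, and 0 fell by edgeR, by DESeq2 or at an unadjusted p below 0.05. Their median log2 fold change was 3.56, and in 16 of them both P6 values lay above both P1 values, against 32.6% of all genes. Runx2, Sp7 and Dlx5 are transcription factors that set the osteoblast fate. *Sp7* counts were 432 and 409 at P1 and 4672 and 5259 at P6, a log2 fold change of 3.56 ± 0.13 SE (adjusted p = 5.13e-05). *Runx2* stood at 1542 and 1636 at P1 and 9917 and 10846 at P6 (2.71 ± 0.11 SE, adjusted p = 7.18e-05), although 34.5% of its exon bases also belong to another annotated gene and reads in such bases cannot be told apart without strand. *Dlx5* was nearly absent at P1, with 8.53 and 40.6 counts, and reached 2925 and 2753 at P6 (6.69 ± 0.44 SE, adjusted p = 0.000368). In each of these genes the P6 libraries were close to each other and far above both P1 libraries.

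Genes for the mineralizing matrix rose as far. *Ibsp* (bone sialoprotein, chromosome 5, 104728190 to 104740488 in mm9, as are the gene positions below) had 763 and 291 at P1 and 48563 and 45758 at P6 (6.51 ± 0.46 SE, adjusted p = 0.000501), so that its P1 libraries differed by more than 2-fold and both P6 libraries were still far above them. *Bglap* (osteocalcin, chromosome 3, 88187423 to 88188386) had 2.84 and 3.39 at P1 and 761 and 938 at P6 (8.01 ± 0.33 SE, adjusted p = 6.59e-05). *Bglap2*, its close copy on the same chromosome, had 2 raw counts in all at P1 and 227 and 370 at P6, a ratio of 266 with a counting interval of 73.3 to 2202 (95%, exact), and reads of such near-identical copies may have been lost or shared in counting. *Alpl*, the alkaline phosphatase that frees phosphate for mineral, went from 884 and 1062 to 8734 and 8141 (3.11). *Smpd3*, a sphingomyelinase needed for normal bone mineral, went from 279 and 623 to 23048 and 25256 (5.72), and *Panx3*, a pannexin of osteoblasts, from 46.9 and 29.6 to 1948 and 2852 (6.02). The osteocyte genes *Dmp1* and *Phex*, both tied to phosphate handling, rose by 3.81 and 3.56 on the log2 scale. *Mepe*, another osteocyte gene, was at 5.68 and 0 at P1 and 69.9 and 82.5 at P6 (5.02 ± 0.85 SE, adjusted p = 0.00913), and lost its call without P6 GFP- 1, without P6 GFP- 2 and under 4 other settings. *Spp1* (osteopontin), which other cell types also make, was the only tested member that did not pass (log2 fold change -0.70, adjusted p = 0.193), and *Sost* had too few counts for a test. The count of 16 was 14 without P6 GFP- 1, 14 without P6 GFP- 2 and 13 in the fit of all 8 libraries. Under no filter on low counts, and without P1 GFP- 1, 1 member was also called lower.

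The start regions of *Bglap* and *Ibsp* are shown because these genes were among the steepest to rise. The RefSeq windows (GRCm38.p6, another build than the mm9 of the counts) run from 250 bases before to 50 bases after the annotated start and are written 5′ to 3′ on the strand of the gene. Capitals mark TATAAA or its reverse complement TTTATA. *Bglap* is on the minus strand (chr3:88384417-88384716) and *Ibsp* on the plus strand (chr5:104299037-104299336).
Bglap: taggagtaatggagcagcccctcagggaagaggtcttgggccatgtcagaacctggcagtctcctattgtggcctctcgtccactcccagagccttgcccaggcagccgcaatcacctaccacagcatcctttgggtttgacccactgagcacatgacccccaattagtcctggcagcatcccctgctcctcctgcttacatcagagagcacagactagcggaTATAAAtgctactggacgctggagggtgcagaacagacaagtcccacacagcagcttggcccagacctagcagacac
Ibsp: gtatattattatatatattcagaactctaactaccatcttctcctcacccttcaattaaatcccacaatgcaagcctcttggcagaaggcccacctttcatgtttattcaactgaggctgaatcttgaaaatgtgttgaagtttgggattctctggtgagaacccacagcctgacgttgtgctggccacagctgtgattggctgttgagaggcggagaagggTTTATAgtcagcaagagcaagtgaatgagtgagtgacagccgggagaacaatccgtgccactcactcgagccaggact
In *Bglap* the match begins at position -27 from the start, and in *Ibsp* at position -28 in the reverse orientation. Among the osteoblast list, 12 of 18 members had a window, and 5 of their 17 windows (29.4%) held TATAAA on either strand, against 13.6% of all 32851 RefSeq windows. The Runx core AACCACA, or TGTGGTT on the other strand, was in 3 of the 17 (17.6%), against 5.27% of all windows. Neither of the windows shown holds the Runx core, and a match describes the sequence only.

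Genes of bone-resorbing cells rose in part. Of 8 tested osteoclast genes 3 rose, against 5.04% of all genes, with a list median of 1.70. By edgeR, by DESeq2 or at an unadjusted p below 0.05, 0 fell. *Acp5*, the tartrate-resistant acid phosphatase that marks osteoclasts, went from 56.8 and 42.3 to 869 and 726 (4.02 ± 0.25 SE, adjusted p = 0.000327). *Mmp9*, a gelatinase of osteoclasts and other leukocytes, went from 404 and 489 to 2089.9 and 1607 (2.05). *Atp6v0d2*, a proton pump subunit used in resorption, had 1 raw count in both P1 libraries together and 91 and 125 at P6, a ratio of 193 with a counting interval of 34.2 to 7639. The cathepsin gene *Ctsk* did not pass (0.66 ± 0.12 SE, adjusted p = 0.0106). *Dcstamp*, which acts in cell fusion, was at 0 in both P1 libraries and at 29.4 and 13.3 at P6 and did not pass either (adjusted p = 0.0163). The count was 2 without P6 GFP- 1, 6 without P1 GFP- 1, 5 by DESeq2 and 6 with no filter on low counts.

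Many genes of the cartilage list rose as well, and which cells of the cochlea made them was not tested. Of 20 tested members 9 rose and 1 fell, against 5.04% and 2.34% of all genes, with a median of 1.25. Both P6 values lay above both P1 values in 18 (32.6% of all genes). *Acan*, the core protein of aggrecan, had 526 and 642 at P1 and 8326 and 8966 at P6 (3.88 ± 0.14 SE, adjusted p = 5.13e-05). *Chad*, chondroadherin, and *Ucma*, a small protein of resting cartilage, followed at 332 and 347 at P1 and 4489.7 and 4007 at P6 and at 144 and 215 at P1 and 3865 and 3210.1 at P6, with log2 fold changes of 3.64 and 4.28. Both P6 libraries were more than 10-fold above both P1 libraries for each of the 3 genes, and all 3 calls held in every other fit. The collagen chains of the list moved less far. *Col9a1* rose from 188518 and 183704 to 592778 and 501035 (1.56) and *Col11a2* from 177447 and 192798 to 575209 and 761066 (1.85), and *Col9a2*, *Col9a3* and *Col11a1* rose by 1.17 to 1.79. *Col2a1*, the main collagen of cartilage, had 813883 and 802079 at P1 and 2144400 and 1910960 at P6, which did not overlap, yet its change of 1.33 ± 0.29 SE did not pass (adjusted p = 0.0228). *Matn1*, matrilin 1, fell from 760.2 and 1053 to 357 and 323 (-1.42 ± 0.21 SE, adjusted p = 0.0058), while *Matn4* rose by 0.95. The regulators *Sox9*, *Sox5* and *Sox6* gave estimates of 0.47, 0.27 and 0.54 and none passed. The count of 9 was 3 without P6 GFP- 1, 3 without P6 GFP- 2, 14 without P1 GFP- 2 and 14 with no filter, and the fall of *Matn1* was lost without either P6 library, with the replicate block and with all 8 libraries.

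Fibrocyte and mesenchyme genes changed unevenly, with a median of 0.86. Of 21 tested members 7 rose and 2 fell, against 5.04% and 2.34% of all genes. Both P6 values lay above both P1 values in 14 of the 21, against 32.6% of all genes. The gene with the steepest rise of the list was *Otos* (otospiralin, chromosome 1, 94540795 to 94545418), a secreted protein of cochlear fibrocytes, which had 55.4 and 108 at P1 and 12592 and 13542 at P6 (7.25 ± 0.28 SE, adjusted p = 5.4e-05). *Emilin2*, an elastin-associated protein, rose from 6001 and 4409 to 55432 and 58399 (3.45), and *Car3*, a carbonic anhydrase, from 52330.5 and 32879 to 253054 and 194584 (2.39). *Coch*, cochlin of the fibrocyte matrix, was at 18862 and 19296 at P1 and 44862 and 42378 at P6 (1.19 ± 0.12 SE, adjusted p = 0.00156). The connexin gene *Gjb6* and the small proteoglycan genes *Lum* and *Fmod* rose by 1.25, 1.49 and 1.55. *Otor* (otoraplin), abundant at both ages, was at 166711 and 132568 at P1 and 361687 and 271785 at P6 and did not pass (adjusted p = 0.0219). *Postn*, periostin, a matrix protein, fell from 17637 and 15561 to 10034 and 9425 (-0.77 ± 0.12 SE, adjusted p = 0.0063). Transcription factor genes of the mesenchyme gave estimates of 0.34 for *Pou3f4*, -0.20 for *Tbx18*, -0.19 for *Twist1* and -0.01 for *Prrx1*, none of which passed. Without P6 GFP- 1 the counts were 2 risen and 0 fallen, without P6 GFP- 2 they were 6 and 0, and without P1 GFP- 1 they were 11 and 2. The lateral wall, where many fibrocytes lie, was removed more completely at P1, and the part of this in the result was not tested.

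The general connective tissue matrix list had a median of 0.23 over 20 tested genes. Of these 2 rose and 2 fell, against 5.04% and 2.34% of all genes. *Tnc*, tenascin C, fell from 46131 and 36366 to 11725 and 14195 (-1.67 ± 0.17 SE, adjusted p = 0.00148). *Col6a3*, a chain of collagen VI, fell from 23986 and 25558 to 11982 and 11088 (-1.10). The microfibril genes *Fbn1* and *Mfap4* rose by 0.83 and 0.66, with 20.1% of the exon bases of *Fbn1* shared with another gene. *Col3a1* and *Fn1*, collagen III and fibronectin, gave estimates of -0.03 and -0.19 and did not pass. *Col1a1* (11018 and 7859 at P1 and 18960.1 and 16274 at P6) had far fewer counts than its partner chain *Col1a2* (411228 and 361808 at P1 and 692998 and 664797 at P6), and *Col6a1* had too few for a test, so levels of these chains in the files may not be comparable between genes. Without P6 GFP- 1 the counts were 0 risen and 0 fallen and without P6 GFP- 2 they were 0 and 1. Without P1 GFP- 1 and P1 GFP- 2 the risen counts were 6 and 4, and by DESeq2 they were 7 risen and 4 fallen.

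**Figure D2:**
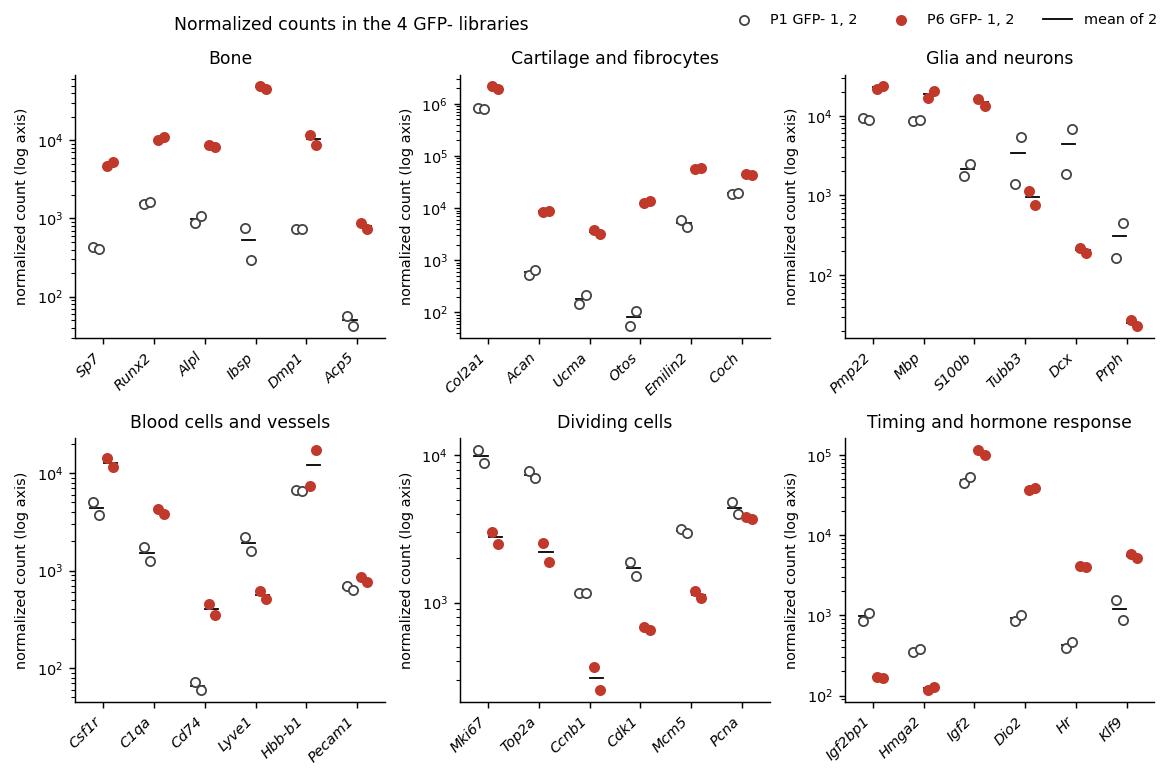
Normalized counts (log axis) of 36 list members in the 2 P1 GFP- libraries (open points) and the 2 P6 GFP- libraries (filled points), with the mean of each pair as a black line. Bone genes such as *Sp7* and *Ibsp* separate the ages widely, *Tubb3* and *Dcx* show the gap between the P1 libraries, and *Pcna* and *Pecam1* have ages that lie close together.

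Myelin genes of Schwann cells rose together. Of 16 tested members 10 rose, against 5.04% of all genes, and the median was 1.20. By edgeR, by DESeq2 or at an unadjusted p below 0.05, 0 fell. In all 16 both P6 values lay above both P1 values, against 32.6% of all genes. *Pmp22*, a membrane protein of peripheral myelin, had 9326 and 8896 at P1 and 21958 and 23269 at P6 (1.31 ± 0.11 SE, adjusted p = 0.000866), and *Mbp*, myelin basic protein, 8605 and 8955 at P1 and 16909 and 20639 at P6 (1.10). *Mag*, which holds myelin to the axon, rose by 1.94, and *Prx*, a scaffold of the Schwann cell, by 1.27. The lipid enzyme genes *Fa2h* and *Ugt8a* rose by 1.63 and 1.13. *Pou3f1*, a factor of promyelinating cells, also rose (1.84), but all of its exon bases are shared with another annotated gene. *Egr2*, which drives the myelin programme, was at 4578 and 4894 at P1 and 7231 and 5649 at P6 and did not pass (adjusted p = 0.0689).

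Genes of the list named for Schwann cell identity gave lower estimates in 8 of 11. The identity list had a median of -0.48 over 11 tested genes, with both P6 values above both P1 values in 1 and below them in 6 (32.6% and 31.8% of all genes). Its median member was 0.39 higher (log2) in P1 GFP- 2 than in P1 GFP- 1, though *Cdh19* and *Gfap* were lower there. The gap was wide for *Ngfr* (897 and 2456 at P1 and 705 and 540 at P6) and *L1cam* (1422 and 2921 at P1 and 879 and 721 at P6). Neither of these 2 passed. *Sox10* was at 5162 and 7898 at P1 and 5471 and 5712 at P6 (-0.22 ± 0.19 SE, adjusted p = 0.446) and *Erbb3*, the neuregulin receptor, gave -0.60 ± 0.15 SE (adjusted p = 0.0316). The only member that passed was *S100b*, a calcium-binding protein made by glia and other cells, which rose from 1749 and 2502 to 16393 and 13419.6 (2.81 ± 0.20 SE, adjusted p = 0.000501). No member fell by edgeR, while 6 were lower at an unadjusted p below 0.05, 4 fell by DESeq2 and 5 fell without P1 GFP- 1. Markers of central glia were low, and 1 of 4 tested passed. *Mobp*, *Olig1* and *Olig2* had too few counts for a test, and *Mog* had 32.7 and 49.9 at P1 and 15.2 and 7.98 at P6. *Aqp4*, a water channel that cochlear epithelium also makes, rose from 18.5 and 38.1 to 484 and 378 (3.87 ± 0.38 SE, adjusted p = 0.00128), a call lost without P6 GFP- 1. The myelin count was 5 without P6 GFP- 1, 3 without P6 GFP- 2 and 1 with all 8 libraries in the fit.

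Most neuronal genes had lower estimates at P6 (18 of 23), but the P1 libraries did not match each other. Of 23 tested genes of spiral ganglion neurons, 2 fell and 1 rose, against 2.34% and 5.04% of all genes, and the median was -0.81. Their summed normalized counts were 46149 and 86699 at P1 and 57162 and 51612 at P6, so the sums of the ages overlapped. The median member was 1.46 higher (log2) in P1 GFP- 2 than in P1 GFP- 1. *Tubb3*, the neuronal tubulin, was at 1397 and 5396 at P1 and 1134 and 757 at P6 (adjusted p = 0.0618), and *Stmn2*, a growth cone protein, at 1658 and 5987 at P1 and 933 and 571 at P6 (adjusted p = 0.0295). The genes that fell were *Prph*, the intermediate filament peripherin, at 162 and 449 at P1 and 27.3 and 23.1 at P6 (-3.61 ± 0.53 SE, adjusted p = 0.00564), and *Gap43*, a protein of growing axons, at 1307 and 3008 at P1 and 520.5 and 497 at P6 (-2.09 ± 0.36 SE, adjusted p = 0.0096). *Kcna1*, a potassium channel of mature axons, rose from 3235 and 2773 to 8009 and 8224 (1.43 ± 0.12 SE, adjusted p = 0.000775). Without P1 GFP- 1 the number that fell was 18, without P1 GFP- 2 it was 6, with no filter 14, and without either P6 library it was 0. Without P1 GFP- 1 and P1 GFP- 2 the numbers that rose were 2 and 5.

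The same gap between the P1 libraries was seen in 3 lists of genes of the cochlear epithelium, and was small (0.13) in the hair cell list. The median member was 1.58 higher (log2) in P1 GFP- 2 for 7 genes of the tectorial and other acellular matrices, 1.00 for 10 genes of stria marginal cells and 0.81 for 11 genes of supporting cells. Not every member showed it, as *Slc1a3* of the supporting cell list was at 20381 and 16679 at P1. *Tecta*, a tectorial membrane protein, was at 32264 and 108347 at P1 and 30981 and 18642 at P6 and did not pass (adjusted p = 0.092). *Tectb*, its partner in the tectorial membrane, was at 7021 and 21046 at P1 and 160780 and 117779 at P6, above both P1 values in both P6 libraries, and rose (3.31 ± 0.50 SE, adjusted p = 0.00598), a call lost without P6 GFP- 1 or P6 GFP- 2 and with library totals. Among supporting cell genes only *Hey1*, a transcriptional repressor, passed, at 845 and 1541 at P1 and 4061 and 3189.7 at P6 (1.60, adjusted p = 0.00962), and it lost its call likewise. No gene of these 3 lists fell by edgeR, while 2, 3 and 3 were lower at an unadjusted p below 0.05 and DESeq2 called 0, 1 and 1 lower. The medians of the tectorial, marginal cell and supporting cell lists were 0.48, 0.15 and 0.43. In the same order, without P1 GFP- 1 the numbers risen and fallen were 2 and 2, 2 and 3, and 2 and 3, and without P1 GFP- 2 they were 4 and 0, 4 and 0, and 5 and 1.

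Hair cells form a small share of the cochlea, and those with weak GFP may have been among the cells of intermediate brightness that were left out. Of 23 tested hair cell genes 3 fell and 1 rose, against 2.34% and 5.04% of all genes, and the median was -1.13. Their median member was 0.13 higher (log2) in P1 GFP- 2 than in P1 GFP- 1. Both P6 values lay below both P1 values in 17, against 31.8% of all genes. *Cdh23*, a cadherin of the tip link and of developing hair bundles, fell from 1404 and 1603 to 408 and 448 (-1.81 ± 0.16 SE, adjusted p = 0.000866). *Lhfpl5*, of the transduction complex, and *Loxhd1*, a hair bundle protein, fell by 1.92 and 2.21. *Ocm*, oncomodulin of outer hair cells, rose from 4.26 and 5.08 to 111 and 68.3 (18.4-fold, adjusted p = 0.00247). The hair cell fate factor *Atoh1* was at 18.5 and 21.2 at P1 and 1.01 and 0 at P6 and *Chrna10*, a subunit of the efferent receptor of hair cells, at 159 and 137 at P1 and 54.7 and 44.4 at P6, and neither passed (adjusted p = 0.0109 and 0.0144). *Slc26a5*, which encodes the motor protein prestin, was at 17.1 and 7.62 at P1 and 71.9 and 44.4 at P6 (adjusted p = 0.0277), and *Myo6* and *Otof* gave -0.02 and 0.17. At these counts a fold change is a rough estimate. The number that fell was 0 without P6 GFP- 1, 1 without P6 GFP- 2, 10 without P1 GFP- 1, 7 without P1 GFP- 2, 13 with no filter and 1 with the replicate block, and the rise of *Ocm* was lost without either P6 library.

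In the stria, only *Atp1b2*, a sodium pump subunit, rose among the 10 marginal cell genes, from 3987 and 4163 to 7151 and 6679 (0.76 ± 0.10 SE, adjusted p = 0.00398). *Kcnq1* and *Kcne1*, the channel through which marginal cells secrete potassium, gave 0.42 and 0.75 and did not pass. Of 12 genes of melanocytes and intermediate cells 3 rose and 1 fell, against 5.04% and 2.34% of all genes, with a median of 0.68. With DESeq2 size factors 3 rose and 3 fell, and with library totals 1 rose and 4 fell. The potassium channel gene *Kcnj10*, which sets the potential across the stria, rose from 2089 and 2568 to 5449.6 and 6041 (1.30 ± 0.14 SE, adjusted p = 0.00155). The pigment genes *Tyr* (tyrosinase) and *Slc45a2* rose by 0.86 and 1.21, and *Tyrp1* fell from 168 and 101 to 27.3 and 25.7 (-2.32 ± 0.38 SE, adjusted p = 0.00835). *Dct*, another enzyme of pigment synthesis, was at 17306 and 11217 at P1 and 27478 and 34367 at P6 and did not pass (adjusted p = 0.0162). *Mlana*, *Mitf* and *Trpm1* also gave higher estimates that did not pass (1.30, 0.70 and 0.66). *Si*, *Kit* and *Ednrb* gave lower ones (-0.75, -0.63 and -0.60, adjusted p = 0.0107, 0.0104 and 0.0183). *Si* was at 6214 and 5128 at P1 and 3175 and 3588 at P6. All 4 calls were lost without P6 GFP- 1 or P6 GFP- 2, as was that of *Atp1b2*, and the stria was only partly removed at P6. Without P1 GFP- 1 the melanocyte counts were 7 risen and 4 fallen, and without P1 GFP- 2 they were 4 and 3.

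Vessel genes rose in part. Of 19 endothelial genes 4 rose, against 5.04% of all genes, with a median of 0.70. *Kdr*, the receptor for VEGF, went from 1219 and 1257 to 3049.8 and 2674 (1.21 ± 0.12 SE, adjusted p = 0.00148), and *Eng*, endoglin, from 6600.3 and 5656 to 13624 and 13869 (1.17). The other members that rose were the transporter genes *Slc2a1*, for glucose (1.17), and *Slco1a4*, for organic anions. *Slco1a4* was at 317 and 265 at P1 and 2129 and 5210.3 at P6 (3.66 ± 0.42 SE, adjusted p = 0.00207). *Cldn5*, *Mfsd2a* and *Abcb1a*, members tied to barrier endothelium, did not pass. The pan-endothelial *Pecam1* and *Cdh5* gave 0.27 and 0.30 and did not pass. Of 10 genes of pericytes and smooth muscle 2 rose, against 5.04% of all genes, with a median of 0.58. *Rgs5*, a pericyte gene, rose from 6285 and 6502 to 15516 and 18989 (1.43 ± 0.13 SE, adjusted p = 0.00109), and *Acta2*, smooth muscle actin, from 55.4 and 93.1 to 312 and 289 (2.00). No endothelial gene fell by edgeR or DESeq2 (1 was lower at an unadjusted p below 0.05), and no mural gene fell by edgeR (2 were lower at that p, and 1 by DESeq2). The endothelial count was 1 without P6 GFP- 1, 8 without P1 GFP- 1, 8 without P1 GFP- 2 and 10 by DESeq2, and the mural count was 1 without either P6 library and 4 without either P1 library.

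Macrophage genes rose broadly. Of 24 tested members 14 rose and 1 fell, against 5.04% and 2.34% of all genes, and the median was 1.22. Both P6 values lay above both P1 values in 21, against 32.6% of all genes. *Csf1r*, the receptor on which macrophages depend for survival, had 5030.1 and 3690.1 at P1 and 14166 and 11432 at P6 (1.55 ± 0.18 SE, adjusted p = 0.00225), with 16.7% of its exon bases shared with another gene. *Cx3cr1*, the fractalkine receptor of resident macrophages, had 2444 and 2346 at P1 and 5881 and 5397 at P6 (1.24 ± 0.11 SE, adjusted p = 0.000893). The complement genes *C1qa*, *C1qb* and *C1qc* rose by 1.42, 1.18 and 1.26, and *Trem2*, a lipid-sensing receptor, by 1.31. Antigen presentation genes of MHC class II started low. *Cd74*, the invariant chain, went from 72.5 and 60.1 to 459 and 349 (2.61 ± 0.27 SE, adjusted p = 0.00158) and *H2-Aa* from 9.95 and 11.9 to 75.9 and 61.2 (2.62). The exception was *Lyve1*, a hyaluronan receptor of perivascular macrophages and lymphatic vessels, which fell from 2212 and 1608 to 623 and 511 (-1.75 ± 0.20 SE, adjusted p = 0.00207). *Mrc1* and *Cd163*, found with *Lyve1* on such macrophages, gave 0.79 and 0.78 and did not pass. The ages overlapped for *Cd163* and for no other macrophage gene named here. Of the members that rose, only *Cx3cr1* kept its call both without P6 GFP- 1 and without P6 GFP- 2. The number that rose was 1 without P6 GFP- 1, 3 without P6 GFP- 2, 0 with all 8 libraries in the fit, 7 with library totals and 21 without P1 GFP- 1.

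Other blood cells gave no call. Of 11 tested erythroid genes (median 0.42) none passed by edgeR or DESeq2, and 1 was higher at an unadjusted p below 0.05. The globin gene *Hbb-b1* was at 6771 and 6579 at P1 and 7365 and 17125 at P6 and *Hba-a1* at 6312 and 5575 at P1 and 5428 and 14712 at P6, so that in both genes P6 GFP- 2 was more than 2-fold above P6 GFP- 1. Of 6 tested neutrophil and mast cell genes (median -1.43) none passed by edgeR, 1 was lower at an unadjusted p below 0.05 and 1 fell by DESeq2. The mast cell protease genes *Cpa3* and *Cma1* were high in P1 GFP- 1 alone, at 237 and 15.2 at P1 and 26.3 and 19.5 at P6 and at 226 and 11.9 at P1 and 24.3 and 24.8 at P6. Of 7 tested lymphocyte genes (median 0.94) none passed by edgeR, 5 were higher at an unadjusted p below 0.05 and 1 rose by DESeq2. Of 3 tested skeletal muscle genes (median -0.71) none passed by edgeR or DESeq2 or at an unadjusted p below 0.05. With no filter on low counts, 4 erythroid genes were called higher, 1 neutrophil or mast cell gene was called higher and 3 lower, 1 lymphocyte gene was called higher and 1 muscle gene lower. Without P6 GFP- 1, 2 erythroid genes were called higher, and without P1 GFP- 1, 1 erythroid gene was called lower, 2 lymphocyte genes higher and 1 muscle gene lower. Without P1 GFP- 2, 3 neutrophil and mast cell genes were called lower and 1 lymphocyte gene higher.

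**Figure D3:**
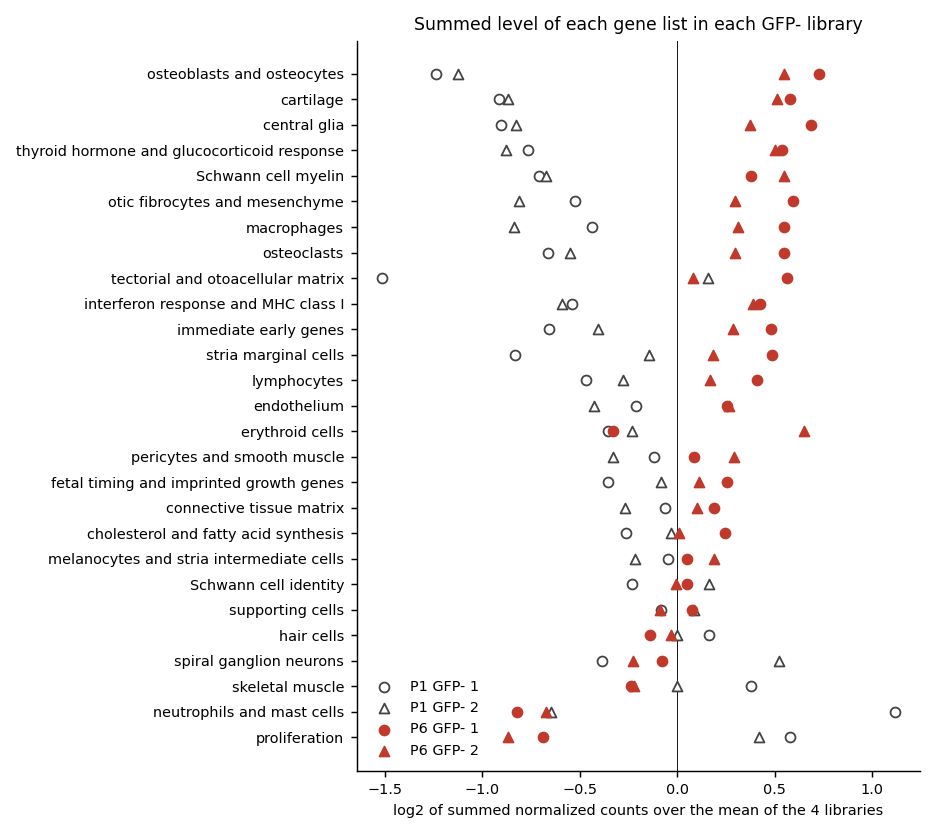
Summed normalized counts of the tested members of each gene list in each GFP- library, as the log2 ratio to the mean of the 4 libraries, with P1 open, P6 filled, replicate 1 as circles and replicate 2 as triangles. The ages are well apart for bone, cartilage, myelin and proliferation, while the P1 replicates are far from each other for the tectorial, neuronal and mast cell lists and the P6 replicates for the erythroid list.

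Nearly all genes of dividing cells fell. Of 29 tested members 27 fell, against 2.34% of all genes, 0 rose by edgeR, by DESeq2 or at an unadjusted p below 0.05, and the median was -1.44. *Mki67*, a protein of the surface of mitotic chromosomes, went from 10815 and 8888 to 3034 and 2519 (-1.83 ± 0.15 SE, adjusted p = 0.00076). *Top2a*, the topoisomerase of dividing cells, went from 7807 and 6997 to 2545 and 1886 (-1.74 ± 0.16 SE, adjusted p = 0.00109). *Ccnb1*, the mitotic cyclin B1, went from 1164 and 1159 to 364 and 256 (-1.91), and its kinase *Cdk1* from 1901 and 1520.4 to 688 and 650.2 (-1.35). The spindle checkpoint genes *Bub1* and *Bub1b* fell by 1.90 and 1.70. The genes *Mcm2*, *Mcm3*, *Mcm5*, *Mcm6* and *Mcm7*, for subunits of the replicative helicase, fell too, with changes between -1.44 and -0.93 and 12.6% of the exon bases of *Mcm7* shared with another gene. *Mcm4* (-0.64 ± 0.13 SE, adjusted p = 0.0156) and *Pcna*, the polymerase clamp (4816 and 4020.3 at P1 and 3829 and 3690 at P6, adjusted p = 0.226), did not pass. Both P6 libraries were below both P1 libraries for all 29 genes, against 31.8% of all genes. The number that fell was 8 without P6 GFP- 1 and 4 without P6 GFP- 2, and it was 18 with all 8 libraries, while *Top2a* and *Mcm5* fell in every other fit.

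The start regions of *Ccnb2* (cyclin B2) and *Cdc20* (the activator of the anaphase ligase) are shown since the list moved together. As background, many mitotic genes carry CCAAT boxes, bound by the factor NF-Y, and a cell cycle homology region with the letters TTTGAA, near their start. Capitals mark CCAAT and TTTGAA, or ATTGG and TTCAAA on the other strand, in the RefSeq windows of GRCm38.p6, again 250 bases before to 50 after the start and 5′ to 3′ on the strand of the gene. Both genes are on the minus strand, *Ccnb2* at chr9:70421505-70421804 and *Cdc20* at chr4:118437294-118437593.
Ccnb2: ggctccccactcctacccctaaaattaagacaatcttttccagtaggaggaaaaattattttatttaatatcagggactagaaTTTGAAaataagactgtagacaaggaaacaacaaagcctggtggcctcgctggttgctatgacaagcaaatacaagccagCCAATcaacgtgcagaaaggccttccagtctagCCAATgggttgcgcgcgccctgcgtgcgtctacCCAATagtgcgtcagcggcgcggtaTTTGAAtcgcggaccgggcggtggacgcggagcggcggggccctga
Cdc20: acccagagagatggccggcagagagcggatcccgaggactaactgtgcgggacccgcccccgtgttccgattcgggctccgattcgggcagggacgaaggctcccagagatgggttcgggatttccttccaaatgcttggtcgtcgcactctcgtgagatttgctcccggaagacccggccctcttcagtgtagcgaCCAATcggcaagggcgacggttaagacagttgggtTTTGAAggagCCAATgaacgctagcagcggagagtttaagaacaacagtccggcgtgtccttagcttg
*Cdc20* holds TTTGAA at position -18 from the start and CCAAT at -53 and -8. *Ccnb2* holds CCAAT at -87, -54 and -21 and TTTGAA at -167 and at position 5. A window was found for 24 of the 29 genes. CCAAT was in 22 of their 26 windows (84.6%), against 37.4% of all 32851 windows, and TTTGAA in 12 (46.2%), against 17.9%. The Runx core and TATAAA were in 0 of the 26. In the osteoblast windows CCAAT was in 8 of 17 (47.1%) and TTTGAA in 1 (5.88%).

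Genes that mark fetal timing fell in part. Of 16 tested members of this list, 7 fell and 1 rose, against 2.34% and 5.04% of all genes, with a median of -1.09. The RNA-binding protein genes *Igf2bp1*, *Igf2bp2* and *Igf2bp3* were at 861 and 1075 at P1 and 170.1 and 168 at P6 for the first, and fell by 2.52, 0.60 and 1.73, with 35.2% of the exon bases of *Igf2bp3* shared with another gene. *Hmga2*, a chromatin protein of fetal progenitors, went from 352 and 384 to 118 and 129 (-1.58 ± 0.23 SE, adjusted p = 0.00517), and *Sox11*, a factor of progenitors and young neurons, from 14597 and 12553 to 3743 and 4497 (-1.72 ± 0.14 SE, adjusted p = 0.000768). *Mest*, an imprinted gene with 23% of its exon bases shared with another gene, fell by 1.77, and *Dcx*, described below, fell by 4.43. *Igf2*, the imprinted growth factor, rose instead, from 44537 and 53695 to 113688 and 99951 (1.12 ± 0.17 SE, adjusted p = 0.00626), and its neighbour *H19* was at 52133 and 67691 at P1 and 130069 and 111555 at P6 without passing (adjusted p = 0.0133). *Lin28b*, which blocks let-7 microRNAs, was at 155 and 369.9 at P1 and 51.6 and 50.6 at P6 and did not pass (adjusted p = 0.013). Without P6 GFP- 1, and likewise without P6 GFP- 2, 3 members fell and none rose, and without P1 GFP- 2 there were 10 and 3, whereas the calls of *Igf2bp1*, *Mest* and *Sox11* held in every other fit.

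Hormone response genes included some of the strongest single changes. *Dio2*, the deiodinase that makes active thyroid hormone and is known from cochlear connective tissue, went from 843 and 997 to 36214 and 38926 (5.35 ± 0.16 SE, adjusted p = 5.13e-05). *Hr*, a corepressor and a classical thyroid hormone target, went from 388 and 463 to 4158 and 4048 (3.26 ± 0.14 SE, adjusted p = 7.25e-05), and *Klf9*, a target of both hormones, from 1536 and 864 to 5857 and 5155 (2.20). The thyroid hormone receptor genes *Thra* and *Thrb* gave -0.12 and 0.51 and did not pass. The glucocorticoid receptor gene *Nr3c1* rose by 0.98 and the kinase gene *Sgk1* by 1.79, whereas *Fkbp5*, a glucocorticoid target, fell from 1297 and 1307 to 547 and 445 (-1.39 ± 0.16 SE, adjusted p = 0.00233). *Tsc22d3* and *Per1*, 2 further targets, gave 0.26 and 0.19 and did not pass. In all, 5 of 13 tested members rose and 1 fell, against 5.04% and 2.34% of all genes, with a median of 0.51. *Dio2*, *Hr* and *Sgk1* held in every other fit, and the number that rose was 3 without P6 GFP- 1 and 3 without P6 GFP- 2, and in neither case did a member fall.

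Of 16 interferon and MHC class I genes 4 rose, against 5.04% of all genes, with a median of 0.59. *B2m*, *H2-K1* and *H2-D1*, which form class I molecules, rose by 1.15, 1.39 and 1.27, *H2-D1* from 2893 and 3053 to 7223 and 7082 (adjusted p = 0.000739), and the interferon target *Ifit3* by 1.82. The interferon targets *Isg15* and *Irf7* gave 0.62 and 0.28 and did not pass. Of 9 immediate early genes, which also respond to dissociation and sorting, 4 rose, against 5.04% of all genes, with a median of 1.05. Both P6 values lay above both P1 values in all 9, against 32.6% of all genes. *Jun* went from 26053 and 31272 to 69373 and 66114 (1.24 ± 0.15 SE, adjusted p = 0.00273) and *Atf3* from 895 and 2080 to 9649.6 and 8563 (2.61), while *Fos* (81701 and 98025 at P1 and 187934 and 161192 at P6) did not pass (adjusted p = 0.0153). Their part in the other changes was not tested. None of these genes fell, by edgeR, by DESeq2 or at an unadjusted p below 0.05. Of 15 genes of cholesterol and fatty acid synthesis none passed by edgeR, 1 was higher at an unadjusted p below 0.05 and 1 rose by DESeq2, and the median was 0.03. Without P6 GFP- 1 the interferon and immediate early counts were 1 each, and without P6 GFP- 2 the latter was 2, while without P1 GFP- 2 it was 8 and by DESeq2 9.

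Among single genes, 240 were higher and 65 lower past 4-fold with a symbol and a mean of at least 100 normalized counts at the higher age, and the first 12 of each were taken by size of change. Those higher at P6 were led by *5430419D17Rik* (chromosome 7, 138317916 to 138394459), at 0 and 3 raw counts at P1 and 1124 and 1745 at P6, a ratio of 852 with a counting interval of 291 to 4136. The bone genes *Bglap*, *Bglap2*, *Atp6v0d2*, *Dlx5* and *Ibsp* and the fibrocyte gene *Otos* followed among the 12. *Dlx6*, the neighbour of *Dlx5*, had 2 raw counts in all at P1 and 132 and 168 at P6, a ratio of 134 (counting interval 36.7 to 1109). *Tmprss9*, a serine protease gene (chromosome 10, 80342465 to 80362186), was at 39.8 and 77.0 at P1 and 11452 and 11854 at P6 (7.57 ± 0.26 SE, adjusted p = 5.13e-05). *Clca5*, of the calcium-activated chloride channel regulators, was at 72.5 and 57.6 at P1 and 8539 and 9021 at P6 (7.10 ± 0.16 SE, adjusted p = 2.01e-05). *Cabp7*, a calcium-binding protein gene, and *Galr1*, a galanin receptor gene, were at 17.1 and 20.3 at P1 and 1376 and 1291 at P6 and at 0 and 3.39 at P1 and 170.1 and 135 at P6, with log2 fold changes of 6.13 and 6.12, and 12.9% of the exon bases of *Cabp7* are shared with another gene. All of the 12 held in every other fit except *Galr1*, which lost its call without P6 GFP- 1 or P6 GFP- 2.

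The 12 genes lower at P6 included several of neurons. *Crabp1*, a retinoic acid binding protein gene (chromosome 9, 54612555 to 54620917), was at 587 and 2432 at P1 and 20.3 and 12.4 at P6 (-6.54 ± 0.78 SE, adjusted p = 0.00254). *Dcx*, doublecortin of young neurons, was at 1878 and 6892 at P1 and 219 and 191 at P6 (-4.43 ± 0.59 SE, adjusted p = 0.00388). *Vgf*, a secreted peptide precursor of neurons, *Scn9a*, a sodium channel of sensory neurons, and *Cacna1b*, the N-type calcium channel, fell by 5.18, 4.02 and 3.00. *Cntn5*, a neuronal contactin, *Cdhr1*, *Chodl*, *Tmem132e*, *Prph* and *Insrr* fell by 3.10 to 4.57 on the log2 scale. In 10 of the 12 genes the value of P1 GFP- 2 was more than 2 times that of P1 GFP- 1, against 18 of all 65, and all 12 calls were lost without P6 GFP- 1 and without P6 GFP- 2.

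For the ranked genes, the GFP+ libraries of the same ages served to test whether the change with age was of another size there. The genes had been ranked on the GFP- change, which is itself part of this difference, so the differences may be overstated. The interaction of age and fraction was called for 372 of 19233 genes (1.93%) and for 2 of the 24 ranked genes, *Tmprss9* and *Galr1*. *Tmprss9* was already present in GFP+ cells at P1, with 528 and 601 at P1 and 4319 and 5734 at P6, and its change in GFP- cells exceeded that in GFP+ cells by 4.45 on the log2 scale (adjusted p = 0.00101). *Galr1* counts in GFP+ cells were 224 and 262 at P1 and 294 and 376 at P6, and the difference was 5.64 (adjusted p = 0.00396). For *Cabp7* the difference of 2.62 missed the threshold (adjusted p = 0.01004). The P6 GFP+ libraries were unlike each other in bone and fibrocyte genes, with *Ibsp* at 2.83 and 6.75 at P1 and 1408 and 5067 at P6 and *Otos* at 37.7 and 45.6 at P1 and 635 and 2076 at P6, and without P6 GFP+ 2 the interaction was called for 5 ranked genes, with no filter on low counts for 12 and by DESeq2 for 5.

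**Figure D4:**
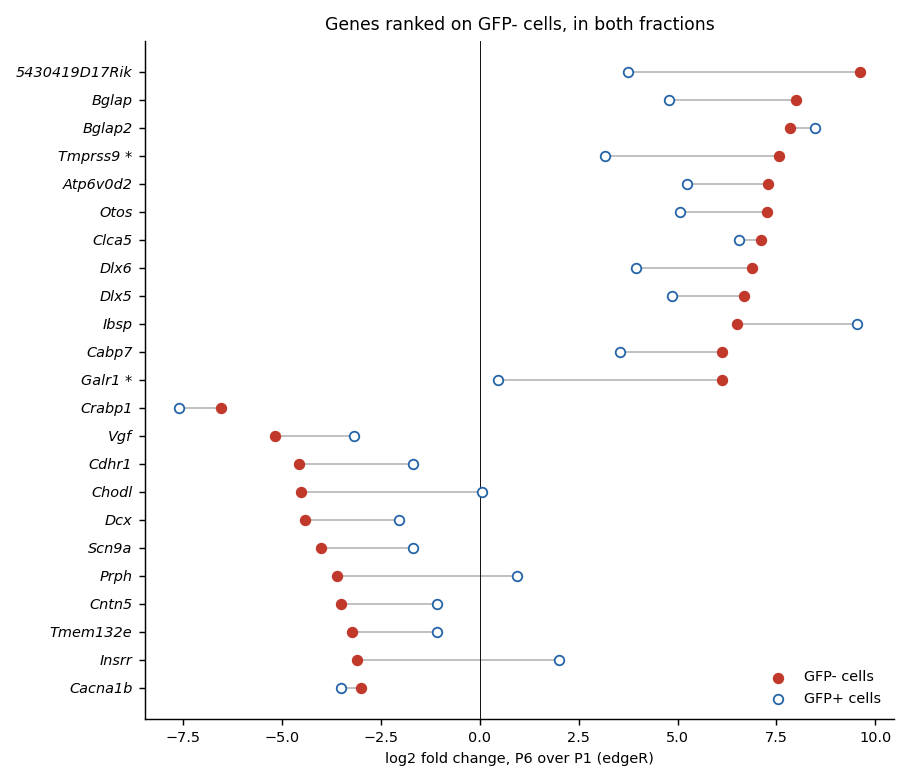
Log2 fold change, P6 over P1, of the 12 genes ranked higher and 11 of the 12 ranked lower in GFP- cells, in GFP- cells (filled) and in GFP+ cells (open). *Tmprss9* and *Galr1*, marked with an asterisk, are the 2 genes with an interaction of age and fraction below an adjusted p of 0.01.

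Scaled by exon length and library size as RPKM, so that levels can be compared between genes, mitochondrial genes led at P1, with *mt-Co1* at a mean level of 5210 and *mt-Co3*, *mt-Co2*, *mt-Atp6* and *mt-Cytb* after it. At P6 *Col2a1* (6207 and 5532 in replicates 1 and 2) and *Otor* (6653 and 4999) had the highest mean levels, 5870 and 5826, ahead of *mt-Co1* at 4908, *mt-Co2* and *mt-Co3*. *Col2a1* was above *mt-Co1* (4571 and 5244) in both P6 libraries, whereas in P6 GFP- 2 *mt-Co1* was above *Otor*, and none of these genes passed the test of change with age.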

How the data were processed

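RNA from GFP- and GFP+ cells sorted from LFng-GFP mouse cochleas at P1 and P6 was sequenced by the authors as paired ends, in 2 libraries per group. The deposited values were raw read counts per Ensembl gene, with no normalization. Per the labels' processing notes reads were aligned to mm9 with TopHat 1.4.0, counted with HTSeq and analysed with DESeq 1.9.2. The kit does not mark strand, so reads of overlapping genes cannot be told apart. Rows that name no gene held 23.8% to 34.9% of the GFP- reads and were left out. Of the 36536 gene IDs, 34391 were in the NCBIM37 annotation and took their symbols from it, and the remaining IDs are given no name.

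The 4 GFP- libraries were fitted in edgeR 4.0.16 (R 4.3.3) with TMM factors, filterByExpr (minimum count 10, minimum total 15) and its quasi-likelihood F-test. P-values were adjusted by Benjamini-Hochberg over all genes tested, and an adjusted p below 0.01 was called. Genes were named when they belonged to a list, were among the 12 largest changes past 4-fold in each direction (mean of 100 or more normalized counts at the higher age), or had one of the 5 highest levels per kb at an age. Some genes that met this rule are counted but not reported here. The members and lists were chosen with earlier results of these data known. Alternatives were DESeq2 1.42.0 (size factors, and its own test), library totals, no filter, thinned counts, all 8 libraries, a replicate block, glmTreat and leaving out each library. Scripts were tested on simulated counts. Intervals of ratios are exact at 95% and cover counting error only. Replicate numbers had no stated pairing, and promoter windows were RefSeq sequences of GRCm38.p6.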

Additional observations from a re-analysis of the deposited data

Results flagged for a closer look

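The change with age of 2 ranked genes differed between the fractions by the edgeR test of the interaction, out of 24 ranked genes tested. Ranking had used the GFP- change, which is part of the difference tested, so its size may be overstated. *Tmprss9* rose by 4.45 more on the log2 scale in GFP- than in GFP+ cells (adjusted p = 0.00101), with fitted changes of 7.57 and 3.16. *Galr1* rose by 6.12 in GFP- cells, against an estimate of 0.47 in GFP+ cells, a difference of 5.64 (adjusted p = 0.00396). In the P1 GFP- libraries *Galr1* had normalized counts of only 0 and 3.39, so the size of this difference is a rough estimate. No fit of the interaction left out a GFP- library. Both differences stayed past the threshold with DESeq2 size factors, with library totals, in the DESeq2 test, with no filter on low counts and without P6 GFP+ 2.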

How the results depend on the processing

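The 4 counts of changed genes (954 higher, 443 lower, 271 and 79 past 4-fold) moved by more than 1.5 times under several settings. The higher count was 564 with library totals. The higher and lower counts were 1852 and 1198 by DESeq2's test, 2351 and 1642 with no filter, and 540 and 229 with all 8 libraries. The count past 4-fold lower was 187 by DESeq2 and 288 with no filter. Tested against a fold of 4 by glmTreat, 53 genes were higher and 0 lower. Leaving out 1 library gave 218 to 1826 higher, 31 to 1426 lower, 123 to 366 past 4-fold higher and 8 to 357 past 4-fold lower. In each such fit the lone library is assumed to vary like the other group, and the cause was not tested. DESeq2 size factors gave 998 and 498, and thinning to the smallest library 876 and 387. The interaction count of 2 was 5 by DESeq2, 12 with no filter and 5 without P6 GFP+ 2.

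With the replicate number as a block the counts were 741 and 299, and 234 and 62 past 4-fold. No source says that the numbers pair samples, and the replicate differences at P1 and P6 correlated at -0.32 across genes. The crossed pairing, chosen after seeing the data, gave 1801 higher and 1262 lower, with 228 past 4-fold lower.

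With 2 libraries a group the fit rests on few degrees of freedom, so single calls near the threshold are weak. Genes were followed through the other fits only if called in the main fit of these libraries, so a kept direction is weak support. Of 179 named genes with a call, none turned direction in 12 other fits, and calls were lost most often without P6 GFP- 1 (115), without P6 GFP- 2 (103) and with all 8 libraries (71).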

Other observations

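The families below were also chosen after values had been seen, so their counts are a description. These counts are to be read beside the 5.04% of all genes that rose and the 2.34% that fell. Of the 6 chains of type IV collagen, which build basement membranes, *Col4a3* and *Col4a4* rose in GFP- cells. *Col4a3* was at 86.7 and 119 at P1 and 4905 and 6582 at P6 (5.78 ± 0.23 SE, edgeR adjusted p = 6.17e-05), and *Col4a4* at 233 and 218 at P1 and 3539 and 3914 at P6 (4.05). *Col4a1* and *Col4a2*, the chains found in nearly all basement membranes, gave -0.17 and 0.23, and *Col4a5*, the third partner of *Col4a3* and *Col4a4* in their trimer, 0.65. None of these 3 passed.

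Of 14 tested ligands of the BMP and GDF group, 6 rose and none fell by edgeR. *Gdf6* had 14.2 and 36.4 at P1 and 1117 and 1087 at P6 (5.35 ± 0.36 SE, edgeR adjusted p = 0.000424), *Bmp6* 249 and 362 at P1 and 2722 and 2125 at P6 (2.98) and *Gdf10* 4456 and 5377 at P1 and 30331 and 25493 at P6 (2.50). *Bmp3*, *Bmp5* and *Bmp15* rose by 2.98, 1.94 and 2.64, with 46.7% of the exon bases of *Bmp5* shared with another gene, while *Bmp4* and *Bmp7* gave 0.02 and 0.01 and did not pass. Of 5 secreted Frizzled-related proteins, which bind Wnt ligands, *Sfrp4* rose from 125 and 175 to 3479 and 3932 (4.61) and *Frzb* from 962 and 997 to 5401 and 4172 (2.29), whereas *Sfrp2*, with 16.1% of its exon bases shared, fell (-0.76).

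Among 14 tested genes of retinoid handling, 3 fell and 1 rose. Besides *Crabp1*, *Crabp2*, the other cellular retinoic acid binding protein, fell by 1.54. Of the enzymes that make retinoic acid, *Aldh1a2* fell from 5476 and 4023 to 1442 and 1361 (-1.76) and *Aldh1a1* rose from 1881 and 1501 to 5600.4 and 5294 (1.69). *Aldh1a3* was at 1349.9 and 4112 at P1 and 1451 and 1015 at P6 and did not pass.

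Of 10 tested organic anion transporters 6 rose. *Slco1c1*, which carries thyroxine, was at 3967 and 2651 at P1 and 22709 and 24576 at P6 (2.84 ± 0.20 SE, edgeR adjusted p = 0.000504), and *Slco2a1*, a prostaglandin carrier, rose by 2.00. Of 13 tested inward rectifier potassium channels 3 rose, *Kcnj16* from 108 and 145 to 1533 and 1097 (3.37), *Kcnj15* from 35.5 and 29.6 to 307 and 298 (3.22) and *Kcnj10*. Of 14 tested nicotinic receptor subunits, *Chrna3* and *Chrnb4* rose (5.14 and 3.56) and *Chrnb3* fell (-2.58). *Chrna6* fell to 2 and 1 raw counts at P6, from 33 and 67 at P1, a ratio of 37.4 with a counting interval of 12.4 to 184. In every family except type IV collagen, at least 1 call was lost without P6 GFP- 1 or P6 GFP- 2.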
